A study of Mus musculus with 8 samples.

Results

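Glutathione transferases and the enzymes that make, recycle, oxidize and break down glutathione were examined in kidneys of mice lacking C1qtnf1, the gene for the secreted protein CTRP1. Members were taken by symbol: the Gst genes of the alpha, mu, pi, theta, zeta, omega and kappa classes, the microsomal Mgst genes, the glutathione peroxidases (Gpx), Hpgds, and 11 named genes of synthesis, reduction and breakdown. This gave 44 of the 35275 genes in the expression table, and 36 of them reached the mean of 1 FPKM over the 8 kidneys (FPKM are read counts scaled by transcript length and sequencing depth) that was required for testing. The tested kidneys came from 4 homozygous Ctrp1-/- males (KO) and 4 wild-type littermate males (WT), and the litters came from crosses between heterozygotes. All 8 mice were 40 weeks old and had eaten a high-fat diet, with 60% of its energy from fat, since 6 weeks of age. The KO allele lacks 679 bp of exon 4, of which 162 bp belong to the 3' UTR, in every cell of the body. It was made in 129S5/Sv embryonic stem cells and crossed to C57BL/6J for more than 6 generations. Each library was made from whole left kidney, so fewer cells of a type and less RNA per cell cannot be told apart in any value below. There was no group on a control diet, so the comparison is between genotypes under high-fat feeding only.

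Glutathione is a cysteine-containing tripeptide that donates electrons to peroxidases and is attached by transferases to reactive compounds such as lipid aldehydes and drugs. The kidney proximal tubule is known both for making glutathione and for taking it apart at its brush border, where the amino acids are recovered from the filtrate. Many of these genes are known targets of the transcription factor NRF2, which binds antioxidant response elements in their promoters.

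Libraries held between 17884140 and 20344859 reads counted in genes. C1qtnf1 was at 0.883, 0.322, 0.60 and 0.633 FPKM in KO replicates 1 to 4, against 5.34, 5.27, 5.53 and 5.55 FPKM in WT replicates 1 to 4. All KO kidneys were below all WT kidneys, as the labels require (log2 fold change −2.0 ± 0.11 SE on the log2(FPKM + 1) scale, limma adjusted p = 2.4e-05). The 10 proximal tubule markers all reached the threshold, with summed levels of 8080 to 8306 FPKM in KO and 7307 to 8990 FPKM in WT kidneys; 3 of the 10 had a positive log2 fold change and their median was −0.16. The 4 adipocyte and 4 adrenal cortex markers were under a mean of 1 FPKM. KO replicate 2 stood apart from the other 7 kidneys: it had the highest of the 8 deposited values for 24.4% and the lowest for 42.5% of the 12118 genes tested. It was given a weight of 0.10 when limma estimated the quality of each library. Log2 fold changes without it are therefore given beside those with all mice wherever they differ by over 1.5 times or in sign.

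Among the 36 tested members, none passed an adjusted p of 0.05 in limma, against 0.0413% of all 12118 genes tested (2 higher and 3 lower in KO). At an unadjusted p of 0.05 there were 2 members, Gsta2 (lower) and Gstm2 (higher), or 5.56% of the 36, against 5.96% of all genes; limma-voom on the reads recovered from the table also gave 0 called members and 2 at an unadjusted p of 0.05. Log2 fold changes were above 0 for 19 members and below 0 for 17, where 47.2% of all genes tested were above 0, and the median was 0.01 for the members and −0.01 for all genes. The median absolute log2 difference was 0.09 for the members and 0.10 for all genes. On the log2(FPKM + 1) scale, all 36 of the 95% intervals lay within a difference of −1 to 1. On that scale 32 lay within a 1.5-fold change either way, the exceptions being Ggct, Chac2, Oplah and Gsta2. The added 1 shrinks differences of genes at a few FPKM, so for these the intervals do not bound the fold change itself. For Gpx7 and Gstm6, limma-voom gave SEs of 0.26 and 0.30, against 0.13 and 0.19 in limma. An interval that includes 0 does not show that the genotypes were alike. Among cell type lists, the summed level of 6 urothelium markers was 13.3 to 31.2 FPKM in KO and 3.33 to 8.73 FPKM in WT kidneys, and its part in the members' differences was not tested.

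**Figure D1:**
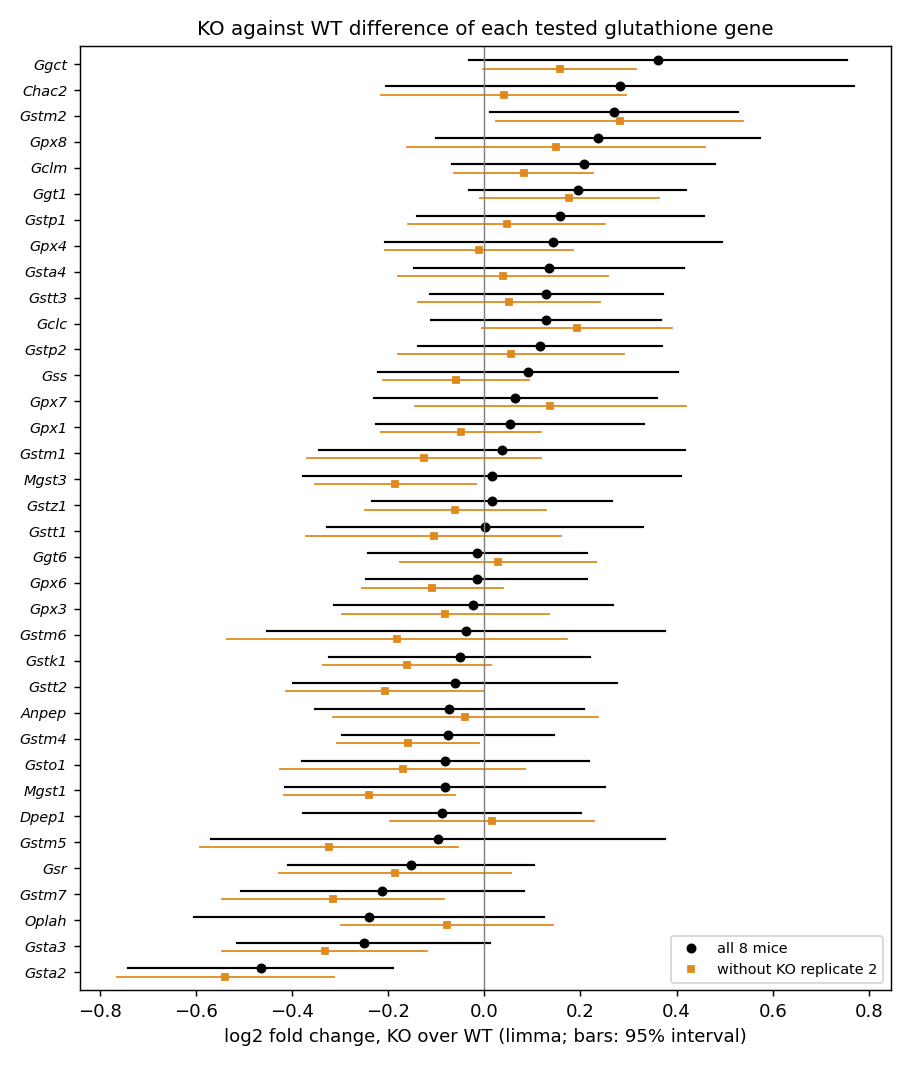
Log2 fold changes of KO over WT kidneys for the 36 tested members on the log2(FPKM + 1) scale, with all 8 mice and without KO replicate 2; points are limma estimates, bars are 95% intervals, and members are ordered by their value with all 8 mice. The Gsta2 interval with all mice lies below 0, from −0.74 to −0.19, and most other intervals cross 0.

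KO replicate 2 weighed on many members. It had the highest deposited FPKM of the 8 kidneys for 20 of the 36 members (55.6%), against 24.4% of all genes, and the lowest for 5. The median member deviation from the WT mean was −0.10, 0.29, −0.06 and −0.01 in KO replicates 1 to 4, against −0.11, 0.00, 0.07 and 0.04 in WT replicates 1 to 4, on the log2 scale. Only KO replicate 2 was far from the others. Of the members, 21 of 36 have transcripts under 1500 bases, against 2150 of 12118 genes. Across all genes tested the log2 difference between KO replicate 2 and the other KO kidneys was correlated with the gene length behind the FPKM (Spearman's rho = −0.57 over 12118 genes, which share a library and are not independent), and for the 36 members alone rho was −0.29. In transcripts under 1500 bases its median excess was 0.43 for the members, against 0.42 for all genes of that length. For 1500 bases or more it was 0.23 for 15 members, against −0.08 for 9968 genes. The median coefficient of variation over KO mice was 15.6% for the members with all 4 mice and 6.75% without KO replicate 2, against 8.11% over WT mice.

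**Figure D2:**
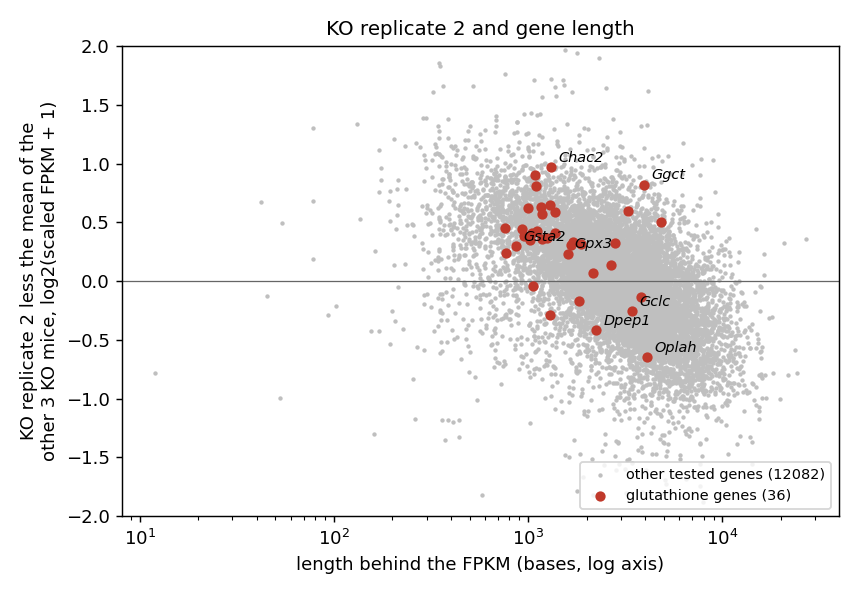
Log2 difference between KO replicate 2 and the mean of the other 3 KO kidneys, plotted against the gene length behind the FPKM (bases, log axis); grey points are other tested genes and red points are members. Short genes tend to sit above 0 and long ones below it, and 12 genes lie outside the plotted range of −2 to 2.

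Without KO replicate 2, 14 members were positive and 22 negative, where 46.8% of all genes were positive. The median was −0.06 for the members and −0.01 for all genes. Of the 36 members, 9 changed sign, against 3397 of the 12118 genes tested. No member passed the adjusted threshold, against 0.173% of all genes tested. At an unadjusted p of 0.05 there were 9 members, or 25.0% of the 36, against 11.5% of all genes. All 9 were Gst or Mgst genes, which make up 19 of the 36 tested members, and no test of this share was made. Of the 9, 8 were negative (Gsta2, Gsta3, Gstm4, Gstm5, Gstm7, Gstt2, Mgst1 and Mgst3) and 1 was positive (Gstm2), with adjusted p-values from 0.086 to 0.43 in limma. The mouse was left out because its library stood apart, which was known before this was computed, and the count is a description of the remaining 7 kidneys.

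For 5 members, a stretch of RefSeq promoter sequence (GRCm38.p6) is shown because it contains the core letters of an antioxidant response element, TGACNNNGC, on 1 strand. They are a synthesis subunit, an alpha and a mu transferase and a pair of breakdown enzymes. Windows ran from 250 bases before to 50 bases after each start and were matched by symbol for 39 of the 44 members. These had 54 windows, more than 1 for some, and each position refers to the start of that transcript. The Ggt1 and Gstm7 matches shown lie within the annotated span of the gene, before a start inside it. Capitals mark the motif, sequences read 5′ to 3′ on the strand named, and the number after each is the position of the match relative to the start.
Gclm, chr3:122245413-122245441, minus strand, −134: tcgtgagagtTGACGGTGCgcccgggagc
Gsta3, chr1:21240454-21240482, plus strand, −121: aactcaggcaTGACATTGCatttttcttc
Gstm7, chr3:107931725-107931753, minus strand, −129: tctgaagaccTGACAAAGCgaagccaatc
Ggct, chr6:54993023-54993051, plus strand, −174: tcccgcccacTGACGTCGCttttctattg
Ggt1, chr10:75571467-75571495, plus strand, −83: gtcacaagccTGACGCTGCgcctccttgc
The letters were found on either strand in 7 of 39 members (17.9%), against 3781 of 27025 genes with a window (14%), so the members were close to the whole. The other 2 were Gstm5 and Mgst1. Ggct and Ggt1 also had matches at other positions, which are not shown. Gsta2, the member with the lowest p, was not among the 7 with a match, and sequence outside the windows was not searched. Members with the letters had log2 fold changes of both signs: Ggct, Ggt1 and Gclm were positive, and Gsta3, Gstm5, Gstm7 and Mgst1 negative, without a called difference in any of them.

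The 3 synthesis genes overlapped between the genotypes. Gclc, the catalytic subunit of glutamate-cysteine ligase and the rate-limiting step, was at 61.9, 42.7, 57.0 and 48.2 FPKM in KO and 55.0, 46.9, 47.3 and 44.0 FPKM in WT kidneys (log2 fold change 0.13 ± 0.11 SE, limma adjusted p = 0.87; 0.19 without KO replicate 2). Gclm, the modifier subunit of the same enzyme, was at 49.4, 65.1, 51.8 and 47.5 FPKM in KO, against 51.3, 45.1, 46.7 and 43.4 FPKM in WT (0.21 ± 0.12, adjusted p = 0.86; 0.08 without KO replicate 2). The highest value of Gclm was in KO replicate 2, and the groups overlapped for both subunits. Gss, which adds glycine in the last step, was at 76.9, 108, 76.8 and 77.7 FPKM in KO and 76.9, 77.5, 85.2 and 80.4 FPKM in WT. Its log2 fold change was 0.09 with all mice and −0.06 without KO replicate 2, the 1 kidney above the rest. Exons of other genes overlap 15.4% of the Gss exon bases (Acss2, Gssos1 and Gssos2), 13.9% of those of Gstm5, 13.6% of Gstt3, 12.2% of Gstz1, 11.7% of Oplah and 4.71% of Gclm. Whether reads were counted by strand is not given in the sources used here.

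Gsr, glutathione reductase, which returns oxidized glutathione to its reduced form, was at 69.3, 65.1, 62.6 and 60.6 FPKM in KO and 94.8, 66.7, 68.1 and 64.4 FPKM in WT kidneys. The WT mean rested on the high value of WT replicate 1, the groups overlapped, and the log2 fold change was −0.15 ± 0.12 (limma adjusted p = 0.86).

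Of the 7 breakdown genes, Ggt1 and Ggct had all KO kidneys above all WT kidneys, without passing the adjusted test. KO kidneys stood above WT kidneys in 2 of the 36 members, against 2.33% of all genes tested. Ggt1, the brush-border gamma-glutamyltransferase that cleaves glutathione outside the cell (chr10:75561604-75586200), was at 701, 680.3, 705 and 700.2 FPKM in KO, against 572.7, 667, 655 and 582 FPKM in WT. KO values spanned a narrow range above the WT ones, with a gap between KO replicate 2 and WT replicate 2 that was small beside the WT spread (697 ± 11.1 in KO and 619 ± 48.8 in WT, SD, n = 4 each). The log2 fold change was 0.19 ± 0.10, with a 95% interval from −0.03 to 0.42 (limma adjusted p = 0.85). Since the groups did not overlap, the two-sided exact permutation p was fixed at 0.029, the smallest that 4 against 4 allows. It restates the lack of overlap and is not separate evidence.

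Ggct, the cytosolic gamma-glutamylcyclotransferase that releases 5-oxoproline, was at 8.84, 14.5, 8.10 and 8.36 FPKM in KO and 7.88, 6.76, 7.80 and 7.27 FPKM in WT. The groups did not overlap, but KO replicate 2 was far above the other KO kidneys. The log2 fold change was 0.36 ± 0.18 with all mice (limma adjusted p = 0.84) and 0.16 without KO replicate 2. Oplah, which opens 5-oxoproline to glutamate, was at 61.5, 42.4, 74.7 and 83.0 FPKM in KO, against 74.8, 80.4, 79.0 and 70.9 FPKM in WT. Here KO replicate 2 was the lowest kidney, and the log2 fold change was −0.24 with all mice and −0.08 without it. Chac2, which splits glutathione within the cytosol, was at 12.2, 22.7, 11.3 and 12.7 FPKM in KO and 13, 10.2, 9.65 and 14.2 FPKM in WT, and its log2 fold change of 0.28 became 0.04 without KO replicate 2. Dpep1 and Anpep, membrane peptidases that can cleave the dipeptide left by Ggt1, and Ggt6, a relative of Ggt1, overlapped between groups with log2 fold changes of −0.09, −0.07 and −0.01 with all mice and 0.02, −0.04 and 0.03 without KO replicate 2.

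Peroxidases were dominated by Gpx3, the secreted plasma enzyme, for which the proximal tubule is the known main source. It was at 17925, 19537, 17345 and 18697 FPKM in KO kidneys, against 18003, 18138, 19286 and 20369.5 FPKM in WT kidneys. Gpx3 took between 2.76% and 3.25% of all reads in genes and had the highest FPKM of any gene in 7 of the 8 kidneys, with rank 2 in KO replicate 2. Its mean was 10.3-fold that of Gpx1 per length, and its groups overlapped (log2 fold change −0.02 ± 0.13, limma adjusted p = 0.98; −0.08 without KO replicate 2). Gpx1, the abundant cytosolic peroxidase, was at 1685, 2139.5, 1799 and 1748 FPKM in KO and 1754, 1773, 1838 and 1812 FPKM in WT. Apart from KO replicate 2, the Gpx1 values of both genotypes lay within a narrow band, and the log2 fold change was 0.05 with all mice and −0.05 without it.

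Gpx4, which reduces lipid hydroperoxides in membranes and restrains ferroptosis, was at 535, 787, 578 and 549.8 FPKM in KO, against 499.6, 571, 593.7 and 563 FPKM in WT. Its log2 fold change was 0.14 ± 0.16 with all mice and −0.01 without KO replicate 2. Gpx4 shares 34.7% of its 50-base stretches with the pseudogene Gpx4-ps2. Reads from these stretches could be miscounted, which was not tested. Gpx8, a membrane protein of the endoplasmic reticulum, was at 7.54, 6.90, 5.18 and 4.54 FPKM in KO and 4.76, 4.89, 4.46 and 5.81 FPKM in WT. KO replicates 1 and 2 were above every WT kidney and the others were not (0.24 ± 0.15, adjusted p = 0.86; 0.15 without KO replicate 2). Its relative Gpx7 was close to the threshold, at 0.954, 0.886, 1.81 and 1.52 FPKM in KO and 1.30, 1.30, 1.09 and 1.03 FPKM in WT. The Gpx7 groups overlapped (0.06 ± 0.13, adjusted p = 0.93; 0.14 without KO replicate 2). Gpx6, known from the olfactory epithelium, had a log2 fold change of −0.02 with all mice and −0.11 without that kidney.

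**Figure D3:**
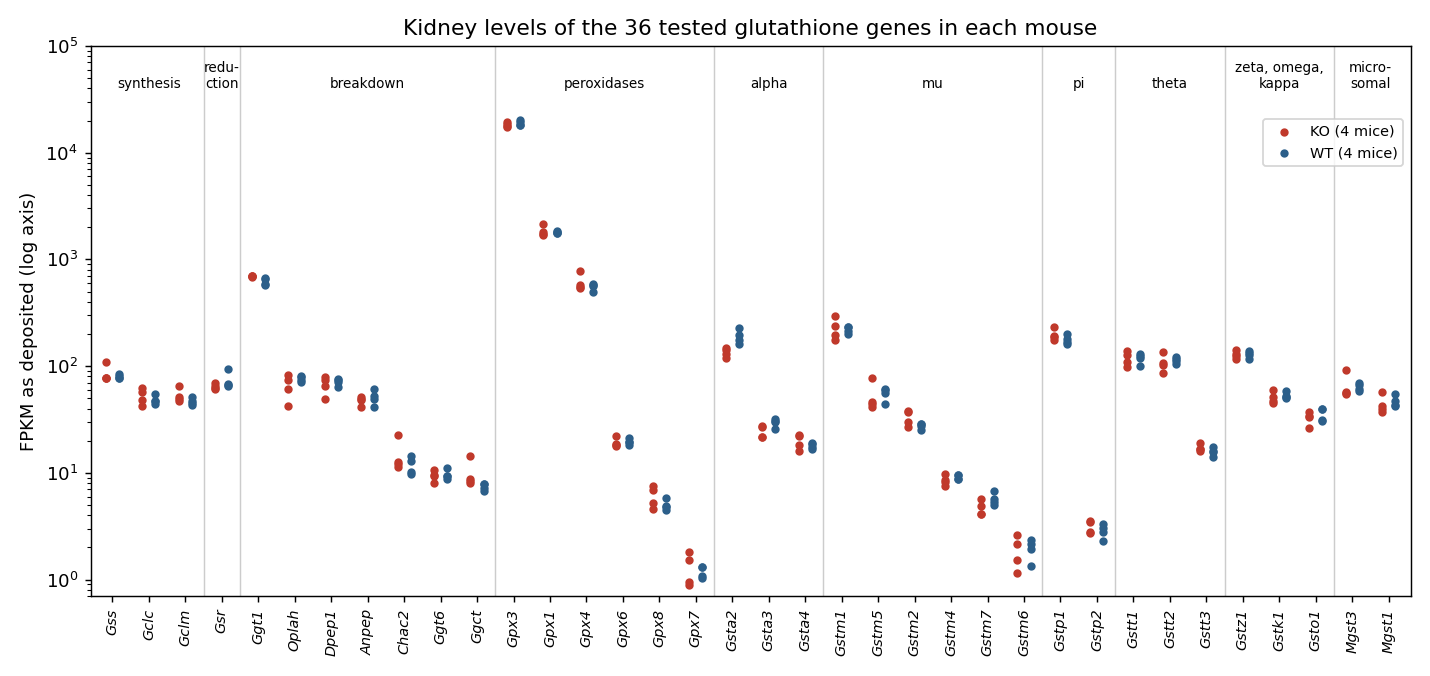
Deposited FPKM of the 36 tested members in each kidney on a log axis, with KO to the left of WT within each member and 1 point per mouse; members are grouped by role. Gpx3 lies above every other member in all 8 kidneys, and most members overlap between the genotypes.

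Among the transferases, the alpha class had the lowest KO levels relative to WT: its summed level was 157 to 197 FPKM in KO kidneys and 205 to 276 FPKM in WT kidneys. Most of it came from Gsta2. This enzyme conjugates glutathione to electrophiles and has peroxidase activity toward lipid hydroperoxides (chr9:78331018-78355788, minus strand). Gsta2 was at 142, 147, 119 and 128 FPKM in KO kidneys, against 227, 159.6, 176 and 195 FPKM in WT kidneys. All 4 KO kidneys were below all 4 WT kidneys, and the KO mean was 70.8% of the WT mean (134 ± 12.7 in KO and 189 ± 29.1 in WT, SD, n = 4 each). KO kidneys stood below WT kidneys in 1 of the 36 members, against 2.83% of all genes tested. The counts behind these values were 2210, 2353, 1910 and 2231 reads in KO and 4009, 2571, 2938 and 3451 reads in WT, so counting error was small beside the spread between mice.

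Gsta2 had a log2 fold change of −0.47 ± 0.12, with a 95% interval from −0.74 to −0.19. With all 8 mice it did not pass the test (unadjusted p = 0.0037, limma adjusted p = 0.47). Without KO replicate 2 the log2 fold change was −0.54 (adjusted p = 0.086), and with libraries weighted by quality it was −0.52 and passed (adjusted p = 0.025), when 0.487% of all genes tested were called. Leaving out each mouse in turn gave values between −0.54 and −0.39. The proximal tubule marker list had mean deviations of −0.07, −0.31, −0.04 and −0.07 in KO and −0.16, 0.03, 0.09 and 0.04 in WT. Markers of its S3 segment had 0.15, 0.30, 0.22 and 0.02 in KO and −0.04, −0.03, 0.17 and −0.10 in WT, on the log2 scale. Single markers did not follow the S3 mean, since 2 of the 6 had a positive log2 fold change and the median was −0.03. Whether tubule composition had a part in the Gsta2 difference was not tested. A list of 10 immediate early and heat shock genes, which respond to handling of tissue, had 0.42, 1.38, 0.43 and 0.55 in KO, against −0.21, 0.08, 0.00 and 0.14 in WT; its part in the Gsta2 difference was not tested.

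Gsta2 shares sequence with other genes: 49.8% of its 50-base stretches also occur in other annotated transcripts. The shares were 36% in Gsta1, 31.8% in Gm10639 and 26.9% in Gm3776. Gm10639 was looked at because of this overlap and after its values were seen. It was at 1.80, 3.01, 2.02 and 1.92 FPKM in KO and 4.27, 2.88, 3.09 and 3.66 FPKM in WT, with KO replicate 2 above the lowest WT kidney (log2 fold change −0.48 ± 0.15, limma adjusted p = 0.64). How reads from the shared sequence were counted was not tested, so the 2 values may not be independent.

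The other tested alpha genes had log2 fold changes of both signs. Gsta3 was at 21.8, 27.3, 21.5 and 27.1 FPKM in KO kidneys, against 30.4, 26, 30.1 and 31.8 FPKM in WT kidneys. WT replicate 2 was within the KO range and the other 3 WT kidneys were above it (−0.25 ± 0.12, limma adjusted p = 0.82; −0.33 and adjusted p = 0.26 without KO replicate 2). Gsta4, which is known for conjugating the lipid aldehyde 4-hydroxynonenal, was at 22.1, 22.7, 16.0 and 18.2 FPKM in KO and 17.3, 19.1, 18.7 and 16.8 FPKM in WT. The Gsta4 groups overlapped (0.13 ± 0.13, adjusted p = 0.87; 0.04 without KO replicate 2). Gsta2 provided 73.9% to 76.3% of the summed alpha-class FPKM in KO kidneys and 77.9% to 82.4% in WT kidneys. The alpha class as a whole made up 15.5 ± 1.43% of the FPKM of all Gst genes and Hpgds in KO and 19.8 ± 2.93% in WT (SD, n = 4 each), and the share of the pi class was 17.2 ± 0.50% in KO and 15.0 ± 1.18% in WT. KO replicate 1 and WT replicate 2 overlapped in the alpha share, and all 4 KO kidneys were above all 4 WT kidneys in the pi share. These shares sum to a whole, so a fall in 1 class raises the others.

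**Figure D4:**
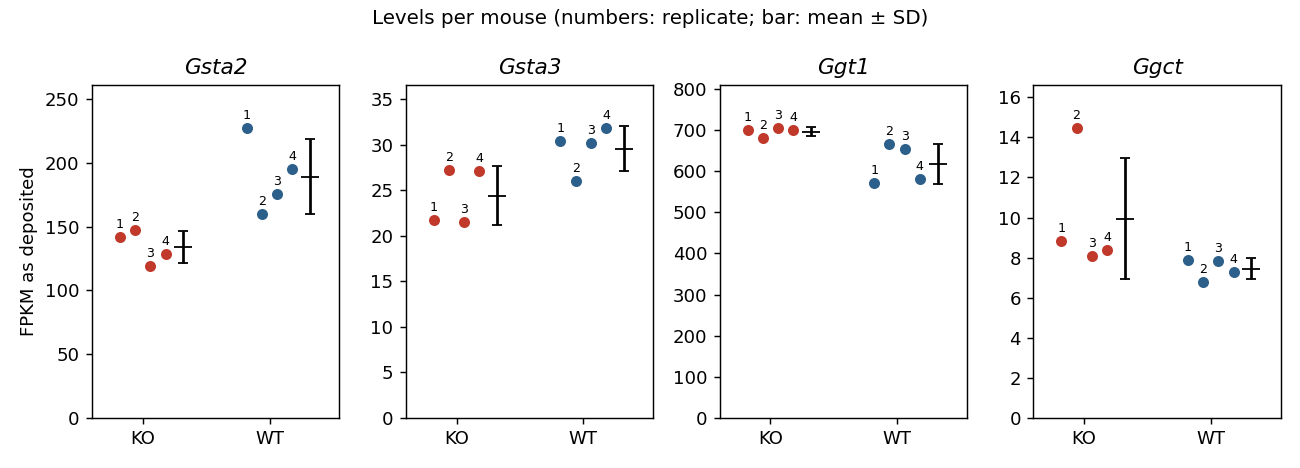
Deposited FPKM per kidney for single members, with KO left of WT, points for mice, and mean ± SD (n = 4 each) beside them; each panel has its own axis. Gsta2 shows 4 KO kidneys at 119 to 147 FPKM below 4 WT kidneys at 159.6 to 227 FPKM.

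The mu class, encoded side by side on chromosome 3 between 107895821 and 108044894, was the largest class by summed level and had log2 fold changes of both signs. Gstm2 was at 37.2, 30.2, 27.1 and 38.2 FPKM in KO kidneys, against 24.9, 28.9, 27.7 and 28.5 FPKM in WT kidneys. In all, 3 of the 4 KO kidneys were above every WT kidney and KO replicate 3 was not (0.27 ± 0.12, 95% interval 0.01 to 0.53, unadjusted p = 0.042, limma adjusted p = 0.82). Gstm1, the most abundant mu gene, was at 196, 294, 177 and 239 FPKM in KO and 200.2, 215, 232 and 235 FPKM in WT, with a log2 fold change of 0.04 with all mice and −0.13 without the high KO replicate 2. Gstm5 was at 41.4, 76.6, 44.0 and 46.2 FPKM in KO, against 44.2, 55.9, 59.5 and 61.1 FPKM in WT. Its log2 fold change was −0.10 with all mice and −0.32 without KO replicate 2, where the groups still overlapped. Gstm7 was at 4.10, 5.68, 4.14 and 4.91 FPKM in KO and 5.05, 5.65, 5.33 and 6.71 FPKM in WT, with −0.21 with all mice and −0.32 without that kidney. Gstm4 was at 8.48, 9.65, 7.5 and 8.28 FPKM in KO, against 9.45, 9.52, 8.69 and 8.72 FPKM in WT. KO replicate 2 was the highest of all 8 and the other 3 KO kidneys were below every WT kidney (−0.08 ± 0.10, limma adjusted p = 0.89; −0.16 and adjusted p = 0.40 without KO replicate 2). Gstm6 had a log2 fold change of −0.04 with all mice and −0.18 without that kidney.

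Among the remaining transferases, Gstp1, the main pi-class enzyme, was at 186, 232, 174 and 191 FPKM in KO and 160.3, 179.5, 201 and 169.7 FPKM in WT (0.16 ± 0.13, limma adjusted p = 0.87; 0.05 without KO replicate 2), and the groups overlapped. Its neighbour Gstp2, which shares 54.3% of its 50-base stretches with other transcripts, was at 2.76, 3.46, 2.82 and 3.51 FPKM in KO and 3.07, 3.30, 2.30 and 2.81 FPKM in WT. Both pi genes had their lowest value in a WT kidney and overlapped otherwise (Gstp2 0.12 ± 0.11, adjusted p = 0.87; 0.06 without KO replicate 2).

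The theta class acts on small halogenated compounds, among others. Gstt1 was at 97.7, 138, 109 and 127 FPKM in KO kidneys, against 100.5, 130.4, 120.1 and 125 FPKM in WT kidneys (0.00 ± 0.15, limma adjusted p = 0.998; −0.11 without KO replicate 2). Gstt2 was at 86.6, 137, 103 and 107 FPKM in KO, against 105, 122, 116 and 111 FPKM in WT (−0.06 ± 0.15, adjusted p = 0.94; −0.21 and adjusted p = 0.43 without that kidney). KO replicate 2 was the highest and KO replicate 1 the lowest kidney for both genes. Gstt3 was at 15.9, 19.1, 16.8 and 16.8 FPKM in KO and 14.2, 15.7, 17.4 and 16 FPKM in WT (0.13 ± 0.11, adjusted p = 0.87; 0.05 without KO replicate 2), and the groups overlapped.

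Gstz1, an enzyme of tyrosine breakdown, was at 117, 140.4, 123 and 129 FPKM in KO and 116, 126, 137 and 132 FPKM in WT (0.02 ± 0.11, limma adjusted p = 0.98; −0.06 without KO replicate 2). Gstk1, a peroxisomal and mitochondrial enzyme, was at 46.7, 60.1, 45.5 and 51.1 FPKM in KO and 51.5, 49.9, 52.8 and 59.0 FPKM in WT (−0.05 ± 0.12, adjusted p = 0.94; −0.16 without that kidney). Gsto1, a thiol transferase, was at 33.4, 37.2, 26.4 and 34.4 FPKM in KO and 39.8, 31.3, 30.4 and 40.0 FPKM in WT (−0.08 ± 0.13, adjusted p = 0.91; −0.17 without that kidney). The groups overlapped for all 3 genes.

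Of the microsomal enzymes, Mgst3, a membrane-bound transferase and peroxidase, was at 57.0, 91.2, 56.1 and 55.2 FPKM in KO kidneys, against 61.3, 58.8, 66.0 and 68.7 FPKM in WT kidneys. Without KO replicate 2 the 3 remaining KO kidneys were all below the WT kidneys, and the log2 fold change of 0.02 became −0.19. Mgst1, which sits in the endoplasmic reticulum and outer mitochondrial membrane, was at 39.6, 57.1, 37.1 and 42.0 FPKM in KO, against 54.8, 43.3, 42.1 and 47.3 FPKM in WT. Its log2 fold change was −0.08 ± 0.15 with all mice (adjusted p = 0.92) and −0.24 without KO replicate 2, the highest of the 8 kidneys (adjusted p = 0.33).

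**Figure D5:**
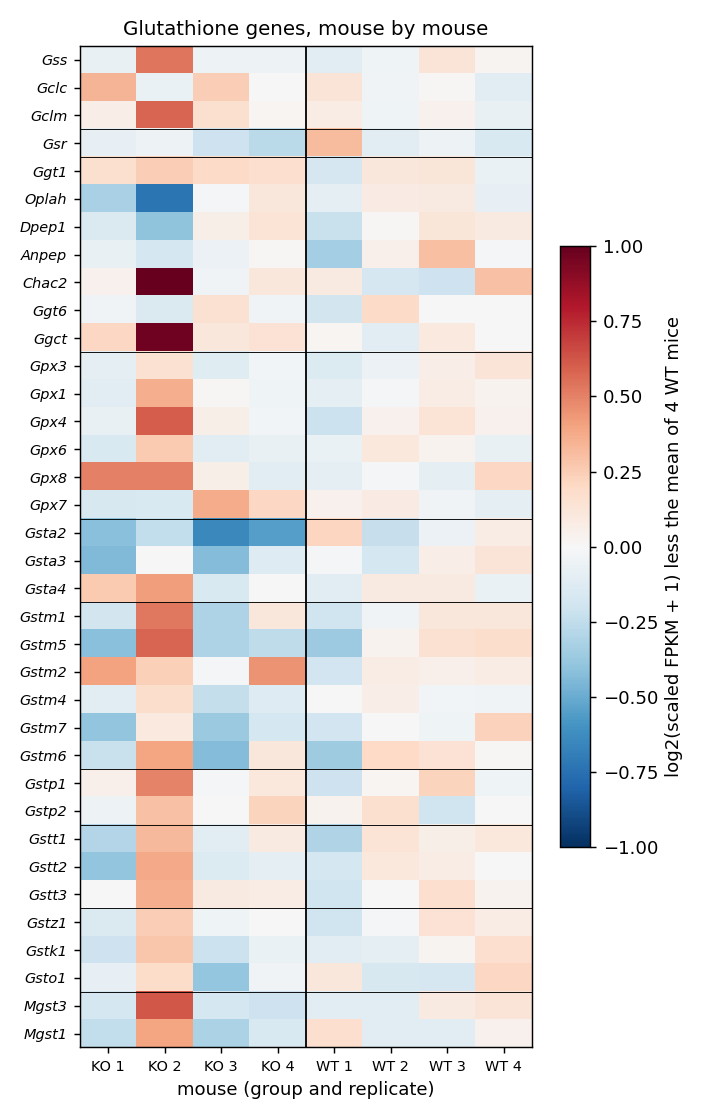
Deviation of each tested member from its WT mean in every kidney on the log2(FPKM + 1) scale, with KO columns left of WT columns and colours saturating at −1 and 1. The column of KO replicate 2 is the one with the most high values. It has the highest of the 8 scaled values in 23 of the 36 members, against 3895 of the 12118 genes tested.

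The 8 members that were not tested had means from 0 to 0.733 FPKM, and the lowest tested mean was 1.24 FPKM, in Gpx7. Gpx5, known from the epididymis, was at 0 in all 8 kidneys. Gpx2, known from the gut, had 3, 0, 1 and 0 reads in KO and none in WT. Mgst2, a microsomal enzyme of leukotriene synthesis, had 9, 13, 5 and 4 reads in KO kidneys and 2, 1, 0 and 2 reads in WT kidneys. Summed, these are 31 reads in KO and 5 in WT, a ratio per read sequenced of 6.51 with an exact binomial 95% interval of 2.51 to 21.4 that covers counting error only. The interval leaves out the spread between mice, and the ratio was computed after the values of Mgst2 were seen. Gsta1, Gstm3, Gstt4, Gsto2 and Hpgds (prostaglandin D synthase of blood cells) had at most 1.00 FPKM in any kidney.

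A wider list of 71 further genes around glutathione (cysteine supply, the thioredoxin system, mercapturate formation, transporters and NRF2 targets) had 65 tested genes, of which 0 passed the adjusted threshold in limma and 7 (10.8%) had an unadjusted p under 0.05, against 5.96% of all genes tested. With all mice 36 of the 65 were positive and 29 negative, with a median of 0.03. Without KO replicate 2 the split was 24 positive and 41 negative, with a median of −0.04. The lowest p was that of Chac1, a stress-induced enzyme that splits glutathione, at 1.37, 1.36, 1.43 and 1.87 FPKM in KO, against 0.422, 0.792, 0.667 and 1.11 FPKM in WT. All KO kidneys were above all WT kidneys, at a low level (0.54 ± 0.13, limma adjusted p = 0.37). The groups did not overlap for 4 of the 65 genes: Chac1 and Cndp2 (KO above), and Abcc2 and Slc7a9 (KO below). Among all genes tested this held for 2.33% with KO above and 2.83% with KO below. In the mercapturate route that follows conjugation, Acy3, which deacetylates mercapturates and is also in the S3 marker list, averaged 1982 ± 257 FPKM in KO and 1529.6 ± 200.2 FPKM in WT (0.40, adjusted p = 0.78), and Ccbl1, a cysteine conjugate lyase, 60.2 ± 5.59 FPKM in KO and 46.6 ± 6.22 FPKM in WT (0.39, adjusted p = 0.66). Abcc2, an apical exporter of glutathione conjugates, averaged 43.6 ± 7.23 FPKM in KO and 55.4 ± 3.96 FPKM in WT (−0.33, adjusted p = 0.68). Slc7a9, a subunit of the cystine transporter of the brush border, averaged 64.7 ± 4.65 FPKM in KO and 78.3 ± 3.88 FPKM in WT (−0.25, adjusted p = 0.70). Ltc4s averaged 1.26 ± 0.24 FPKM in KO and 0.77 ± 0.27 FPKM in WT (0.36, limma adjusted p = 0.75). Cndp2 averaged 488 ± 34.0 FPKM in KO and 399 ± 52.8 FPKM in WT (0.32, limma adjusted p = 0.78). SDs are over 4 mice in each group.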

How the data were processed

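The authors deposited a single table of FPKM values per gene for 8 kidney libraries of poly(A)-selected RNA. The submitters' processing notes name CASAVA, STAR 2.5, HTSeq 0.6.1, DESeq2 and build mm10; no annotation, strand setting or FPKM step is named there. A count test had been planned, but the values are not counts. They were scaled by trimmed-mean factors (0.936 to 1.052) and compared as log2(FPKM + 1) with limma 3.58.1 (trend and robust options, statmod 1.5.0, R 4.3.3) over the 12118 genes with a mean of at least 1 FPKM, with Benjamini-Hochberg adjustment over all of them. The fit was tested on simulated data. Whole reads were recovered for 22945 of 22945 genes above 0, within 0.002 reads, by fitting a length for each gene. The GENCODE M21 length itself gave whole reads for 5865 of them. With shifted values, 0.0% of 500 control genes with a mean of at least 1 FPKM gave whole reads. The control did not cover lower genes, for which some length may fit in any case. Of each total, 99.92% to 99.95% was accounted for. Shared stretches and exon overlaps used GENCODE M21. Limma p-values set each difference against the spread between these mice, after each gene's variance was drawn toward a trend over all genes tested. Values per mouse are given for members with the lowest p (up to 3) and highest means (up to 2) in each role, and for others that 1 library moved. The members and lists were chosen with earlier results of these data known. No column of another sample was present. Alternatives were no further scaling, median-of-ratios factors, no filter or a mean of 5 FPKM, a pseudocount of 0.1, limma-voom, library weights and leaving out each of 8 mice.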

Additional observations from a re-analysis of the deposited data

Results flagged for a closer look

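In 7 of 74 groups of 4 mice, 1 kidney lay far from the other 3 of its genotype relative to the group's range, and chance gives about 1 in 20 such groups. In 6 of the 7 the kidney was KO replicate 2, high each time. Its values were 14.5 FPKM for Ggct, 22.7 FPKM for Chac2, 76.6 FPKM for Gstm5, 91.2 FPKM for Mgst3, 108 FPKM for Gss and 787 FPKM for Gpx4. These 6 groups are not independent, since the values come from the same library. The remaining one was WT replicate 1 with 94.8 FPKM for Gsr.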

How the results depend on the processing

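No member was called in any alternative except library weights, which called 1 (Gsta2). Of the 36 members, 17 kept their sign in each of the 15 alternatives and 19 did not; 10 of these changed only when a mouse was left out, and the main values of the 19 were at most 0.14 in size. With library weights the fit called 59 genes (30 higher, 29 lower in KO), the member median was −0.091, and the signs of Gstt1 (−0.16), Gstz1 (−0.088), Mgst3 (−0.18), Gss (−0.064), Gsta4 (−0.022), Ggt6 (0.022), Gstm1 (−0.20), Gpx1 (−0.042) and Gpx4 (−0.019) turned. Without further scaling Gstt1 (−0.019), Gstz1 (−0.0053) and Mgst3 (−0.0049) turned. A mean of at least 5 FPKM gave 3 calls, 1 of them higher in KO, and no value for Gpx7, Gstm6 and Gstp2. Leaving out each mouse gave 3 to 21 called genes (2 to 16 higher, 1 to 12 lower), and turned Gstt1 (−0.11 to 0.10), Gstm5 (−0.32 to 0.0092), Gpx6 (−0.11 to 0.028), Gpx3 (−0.081 to 0.019), Dpep1 (−0.16 to 0.016), Gstz1 (−0.060 to 0.068), Gsto1 (−0.17 to 0.021), Mgst3 (−0.19 to 0.091), Gss (−0.059 to 0.14), Gpx7 (−0.038 to 0.14), Gstk1 (−0.16 to 0.0042), Gstt2 (−0.21 to 0.052), Anpep (−0.19 to 0.027), Ggt6 (−0.075 to 0.048), Gstm1 (−0.13 to 0.15), Gpx1 (−0.049 to 0.11), Gstm6 (−0.18 to 0.094) and Gpx4 (−0.012 to 0.21). The causes of these changes were not tested. No paired analysis was possible because the labels give the mice no numbers shared between genotypes. The planned quasi-likelihood count test was not run, since the table holds FPKM. Members under a mean of 1 FPKM had between 0 and 152 reads over 8 kidneys, which limits what can be seen in them.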
